A study of Mus musculus with 8 samples.

Results

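The genes described here are 34 genes of B lymphocytes and of the antibody-secreting plasma cells that arise from them, out of 22244 genes in the count table of naphthalene-injected and control mouse lungs. They were chosen by gene symbol, as 29 genes of mature B cells and 5 of plasma cells, and all 34 symbols were found in the table. Lung RNA came from adult male wild-type C57BL/6J mice, a standard inbred strain. One group of 4 mice was labelled as having no treatment, and the other 4 had been injected with naphthalene, an aromatic hydrocarbon that airway club cells convert to toxic metabolites. Each library was made from total RNA of the right cranial lobe. The sources used here do not give the dose, vehicle, sampling time or age in weeks, so injection itself and naphthalene cannot be told apart. The RNA is that of a lung lobe and not of sorted cells, so these values sum over all the cells of the lobe. For no member was the part of cells outside the B lineage tested. Fewer B cells and less RNA per B cell cannot be told apart.

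A B cell recognises antigen through a membrane immunoglobulin held by the signalling chains CD79A and CD79B, which pass the signal to the kinases BLK and BTK and the adaptor BLNK. Surface proteins such as CD22 and CD72 restrain that signal, and the BAFF receptor keeps resting B cells alive. The factors EBF1 and PAX5 set and hold B cell identity. Plasma cells lose most of this programme under BLIMP1, encoded by Prdm1, and make the joining chain of secreted antibody. In the lung, B cells sit in the blood vessels, in small numbers in the tissue and in lymphoid aggregates along the airways.

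Total counts ranged from 10743842 to 16792306 per library. Levels are given as CPM, which are counts scaled to library size by the TMM method, and 3 counts corresponded to 0.179 to 0.275 CPM. The alveolar type 2 marker Sftpc and the club cell marker Scgb1a1 were abundant, at 6452 and 4785 CPM in controls. Control 3 stood apart in its neutrophil list, whose summed level was 390 CPM there against 61.8 to 93.2 CPM in the other controls. Genes of chromosome 1 carried almost no counts in any library. Of 1172 symbols that a RefSeq table (GRCm38.p6) places on that chromosome, 1159 (98.9%) were at 0 in all 8 libraries and 0 could be tested. On the other autosomes the share at 0 was 0.659% to 11.9%. The members Cr2, Fcmr, Fcrla and Ralgps2 lie on chromosome 1 and were listed at 0 in all 8 libraries. Their zeros are therefore not read as levels.

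After naphthalene the mature B cell genes were lower almost throughout. Of the 24 mature members with enough counts to be tested, 23 fell, 0 rose, and Tnfrsf13b did not pass (edgeR quasi-likelihood test, Benjamini-Hochberg adjusted p under 0.05 over all 14192 tested genes). Over all tested genes 14.6% were called lower by the same rule. The median log2 fold change of the 24 was -1.18, beside 0.01 over all tested genes, and 17 of them were lower by at least 1 on the log2 scale, beside 5.7% of all tested genes. Lower values in all 4 naphthalene libraries than in all 4 controls were seen for 21 of the 24, beside 14.7% of all tested genes. The 4 plasma cell members that could be tested split, with Jchain, Mzb1 and Prdm1 lower and Sdc1 higher. The share of all tested genes called higher was 14.1%. Besides the 4 genes of chromosome 1, Fcrl5 and Tnfrsf17 had too few counts to test.

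**Figure D1:**
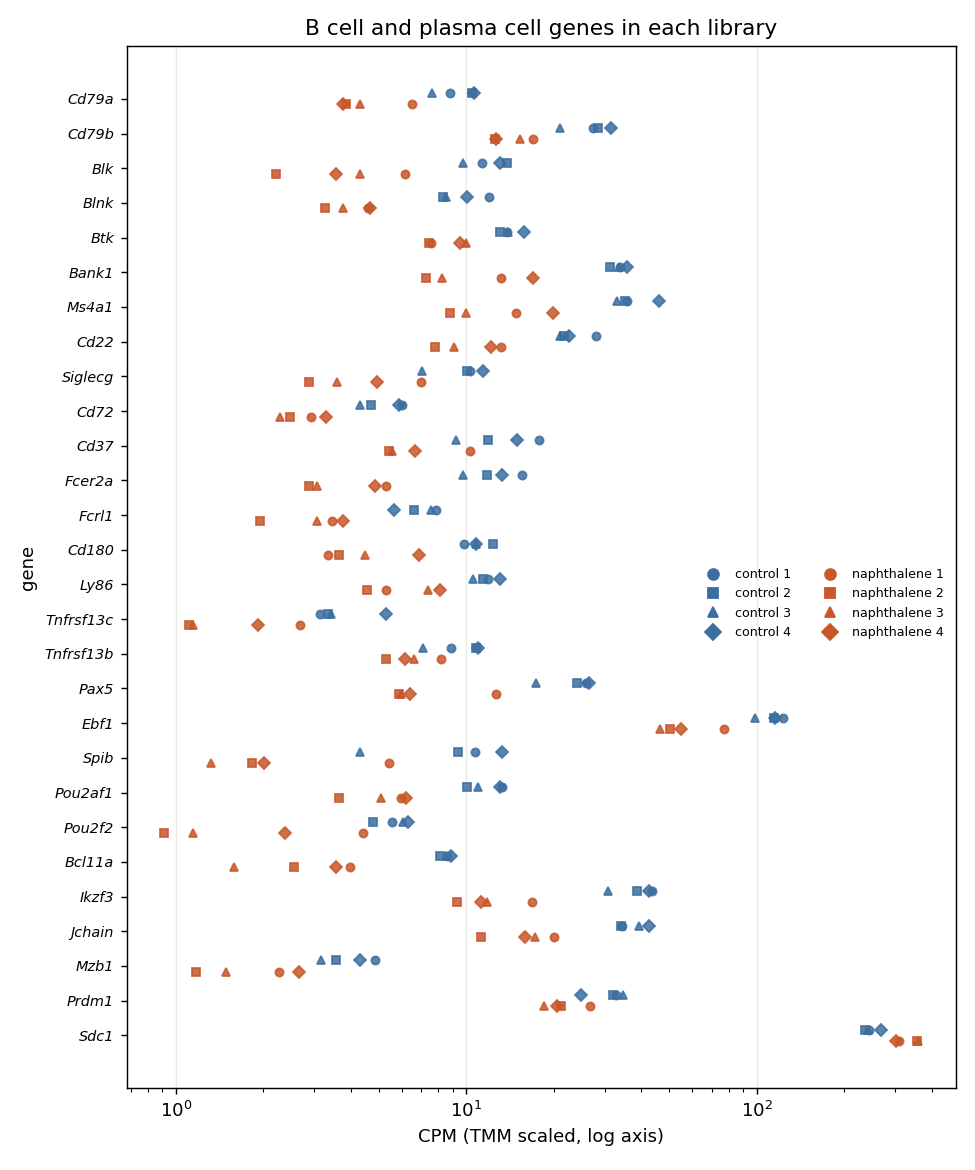
CPM (TMM scaled, log axis) of the 28 tested members, 1 row per gene and 1 point per library, with controls in blue and naphthalene libraries in orange and the marker shape giving the replicate. The orange points lie left of the blue ones in nearly every row, and in the lowest row, Sdc1, they lie to the right.

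Both signalling chains of the B cell receptor fell. Cd79a stood at 8.79, 10.4, 7.64 and 10.7 CPM in controls 1 to 4 and at 6.49, 3.85, 4.31 and 3.75 CPM in naphthalene libraries 1 to 4. The groups did not overlap, although naphthalene 1 came close to control 3. The log2 fold change was -1.02 ± 0.21 (SE, adjusted p = 0.00423 in edgeR), which left 49.0% of the control mean. Cd79b was at 27.3, 28.4, 21.0 and 31.5 CPM in controls and 17.0, 12.6, 15.3 and 12.6 CPM after naphthalene. It was lower in every naphthalene library than in any control, with a log2 fold change of -0.91 ± 0.16 (SE, adjusted p = 0.00128 in edgeR).

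Downstream of the receptor all 4 signalling members fell. Blk, a Src-family kinase, fell from 12.00 ± 1.85 to 4.06 ± 1.63 CPM (mean ± SD, n = 4 per group). Blnk, the adaptor that links the receptor to phospholipase C, fell from 9.74 ± 1.70 to 4.07 ± 0.674 CPM. Bank1, a B cell scaffold protein, fell from 33.6 ± 1.95 to 11.4 ± 4.51 CPM. Btk, the kinase whose loss blocks B cell development, had the smallest change of these genes, from 14.1 ± 1.15 to 8.63 ± 1.33 CPM, or 61.1% of the control mean. Btk is also used by myeloid cells. In the monocyte and macrophage list 3 of 7 tested genes fell and 1 rose, beside 14.6% and 14.1% of all tested genes. Its summed level was 387 to 460 CPM in controls and 330 to 396 CPM after naphthalene, with Marco listed at 0 on chromosome 1. Without control 1, control 4 or naphthalene 2 only 2 genes of this list fell and 0 rose. The part of myeloid cells in the Btk value was not tested.

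All 9 tested surface members fell. Ms4a1, which encodes the B cell antigen CD20, was at 35.8, 35.3, 33.0 and 46.1 CPM in controls and 14.9, 8.81, 10.02 and 19.96 CPM after naphthalene. The highest naphthalene library remained well under the lowest control, and the log2 fold change was -1.49 ± 0.29 (SE, adjusted p = 0.000845 in edgeR). Cd22, an inhibitory sialic acid-binding receptor, was at 28.0, 21.8, 21.1 and 22.6 CPM in controls and 13.2, 7.83, 9.05 and 12.2 CPM after naphthalene. Its groups were apart as well (log2 fold change -1.14 ± 0.20 SE, adjusted p = 0.000825 in edgeR). Fcer2a encodes CD23, the low-affinity IgE receptor of follicular B cells. It was at 15.5, 11.8, 9.75 and 13.3 CPM in controls and 5.30, 2.87, 3.08 and 4.85 CPM after naphthalene. This was the largest fall among the surface members, to 31.9% of the control mean (log2 fold change -1.64 ± 0.26 SE, adjusted p = 0.000481 in edgeR).

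The other surface members fell by log2 values between -1.28 and -0.90. Cd180 and Ly86, which encode a Toll-like receptor homologue and a partner protein of that family, fell to 41.8% and 54.1% of the control mean. Siglecg, a second inhibitory Siglec, fell to 47.4% and Fcrl1, an Fc receptor-like protein, to 44.2%. Cd72, an inhibitory coreceptor, fell to 52.5%, but 41.6% of its exon length lies opposite exons of Tesk1 (GENCODE M21), and no source used here gives the strand setting of the counting. Cd37, a tetraspanin of B cells, fell from 13.5 ± 3.70 to 6.98 ± 2.28 CPM with overlapping groups, since naphthalene 1 (10.3 CPM) exceeded control 3 (9.23 CPM). Its call was lost without control 1 or without naphthalene 2 (edgeR adjusted p 0.0522 to 0.0546). Fcrl5, a receptor of marginal zone and innate-like B cells, was too low to test, with 3 to 13 counts per control library and 4 to 11 per naphthalene library.

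The BAFF system gave the 1 tested mature gene that did not pass. Tnfrsf13b encodes TACI, a receptor for BAFF and APRIL. It was at 8.87, 10.8, 7.12 and 11.0 CPM in controls and 8.21, 5.28, 6.59 and 6.14 CPM after naphthalene, with overlapping groups (log2 fold change -0.53 ± 0.19 SE, adjusted p = 0.0593 in edgeR). Leaving out control 3 brought it past the threshold (edgeR adjusted p = 0.028), as did leaving out naphthalene 1 (0.0211), both of these (0.00727) or the use of DESeq2 (0.0391). Control 3 and naphthalene 1 were the lowest control and the highest injected mouse for Tnfrsf13b, so leaving them out had to enlarge its fall. Tnfrsf13c, the BAFF receptor itself, fell from 3.80 ± 1.01 to 1.71 ± 0.745 CPM (log2 fold change -1.13, edgeR adjusted p = 0.0202). That call was lost without control 4, naphthalene 2 or naphthalene 3 (edgeR adjusted p 0.057 to 0.0706). Tnfsf13b, the gene of BAFF and chosen after its values were seen, was at 15.9 ± 0.858 CPM in controls and 14.8 ± 1.69 CPM after naphthalene (log2 fold change -0.10 ± 0.09 SE, adjusted p = 0.573 in edgeR). Tnfsf13, the gene of APRIL and chosen in the same way, fell from 5.63 ± 0.718 to 3.56 ± 0.541 CPM. Its groups did not overlap (log2 fold change -0.66 ± 0.14 SE, adjusted p = 0.0208 in edgeR).

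All 7 tested transcription factors fell, with a median log2 fold change of -1.53, and they held the 2 largest changes of the mature members. Pax5 was at 25.8, 24.0, 17.4 and 26.4 CPM in controls and 12.7, 5.87, 5.97 and 6.41 CPM after naphthalene. Naphthalene 1 held more than the other 3 injected mice yet lay below every control (log2 fold change -1.58 ± 0.30 SE, adjusted p = 0.000943 in edgeR). Ikzf3, the gene of the lymphoid factor AIOLOS, had the smallest p of all members. It was at 43.7, 38.7, 30.7 and 42.5 CPM in controls and 16.9, 9.33, 11.8 and 11.3 CPM after naphthalene, far apart in all libraries (log2 fold change -1.65 ± 0.21 SE, adjusted p = 0.000124 in edgeR). AIOLOS is also made by T and NK cells. T cell genes fell in 9 of 10 tested cases and NK cell genes in 6 of 6, beside 14.6% of all tested genes. The median log2 fold change was -1.22 for the T cell list and -1.55 for the NK list, beside -1.18 for the mature B cell members. A fall of this size was thus not particular to the B cell genes. Summed, the T cell list was at 43.1 to 52.5 CPM in controls and 15.3 to 24.6 CPM after naphthalene, and the NK list at 36.1 to 49.1 and 8.87 to 19.4 CPM. Their part in the Ikzf3 value was not tested.

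Spib, an ETS factor of B cells and plasmacytoid dendritic cells, had the largest and the most scattered change. It was at 10.8, 9.36, 4.31 and 13.2 CPM in controls and 5.42, 1.83, 1.32 and 2.01 CPM after naphthalene. Control 3 lay below naphthalene 1, so the groups overlapped (log2 fold change -1.79 ± 0.54 SE, adjusted p = 0.0102 in edgeR). These were the lowest control and the highest injected mouse for Spib, so leaving both out had to enlarge the fall (log2 fold change -2.68). Bcl11a, a factor of the same 2 lineages, fell from 8.53 ± 0.311 to 2.92 ± 1.08 CPM. In the plasmacytoid dendritic cell list 4 of 6 tested genes fell and 1 rose, beside 14.6% and 14.1% of all tested genes. Without control 1, control 2 or naphthalene 3, 3 fell and 0 rose. The list's summed level was 536 to 692 CPM in controls and 465 to 549 CPM after naphthalene, of which the broadly expressed Tcf4 made up most. Siglech, its most specific gene and chosen after its values were seen, fell from 4.22 ± 1.67 to 0.562 ± 0.376 CPM. The part of plasmacytoid dendritic cells in the Spib and Bcl11a values was not tested.

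Pou2af1, the B cell coactivator that binds octamer factors, fell to 44.2% of the control mean. Pou2f2, which encodes the octamer factor OCT2, fell from 5.68 ± 0.669 to 2.21 ± 1.60 CPM, and its call was lost without control 1, 3 or 4 or naphthalene 2 or 3 (edgeR adjusted p 0.0539 to 0.0709). Ebf1 was the most abundant factor per transcript length, at 11.6 CPM per kilobase of exon in controls against 2.64 for Pax5. It fell from 113 ± 10.4 to 57.1 ± 13.6 CPM, or 50.6% of the control mean, beside 33.0% for Pax5. Ebf1 is also expressed in stromal and fat-lineage cells. In the mesenchymal list 1 of 7 tested genes fell and 1 rose, beside 14.6% and 14.1% of all tested genes. Its summed level was 1531 to 1560 CPM in controls and 1133 to 1674 CPM after naphthalene. Leaving out control 1, 2 or 4 removed the call of the rising gene, and without control 3 and naphthalene 1 together 3 fell and 2 rose. The share of Ebf1 that came from stromal cells was not tested.

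**Figure D2:**
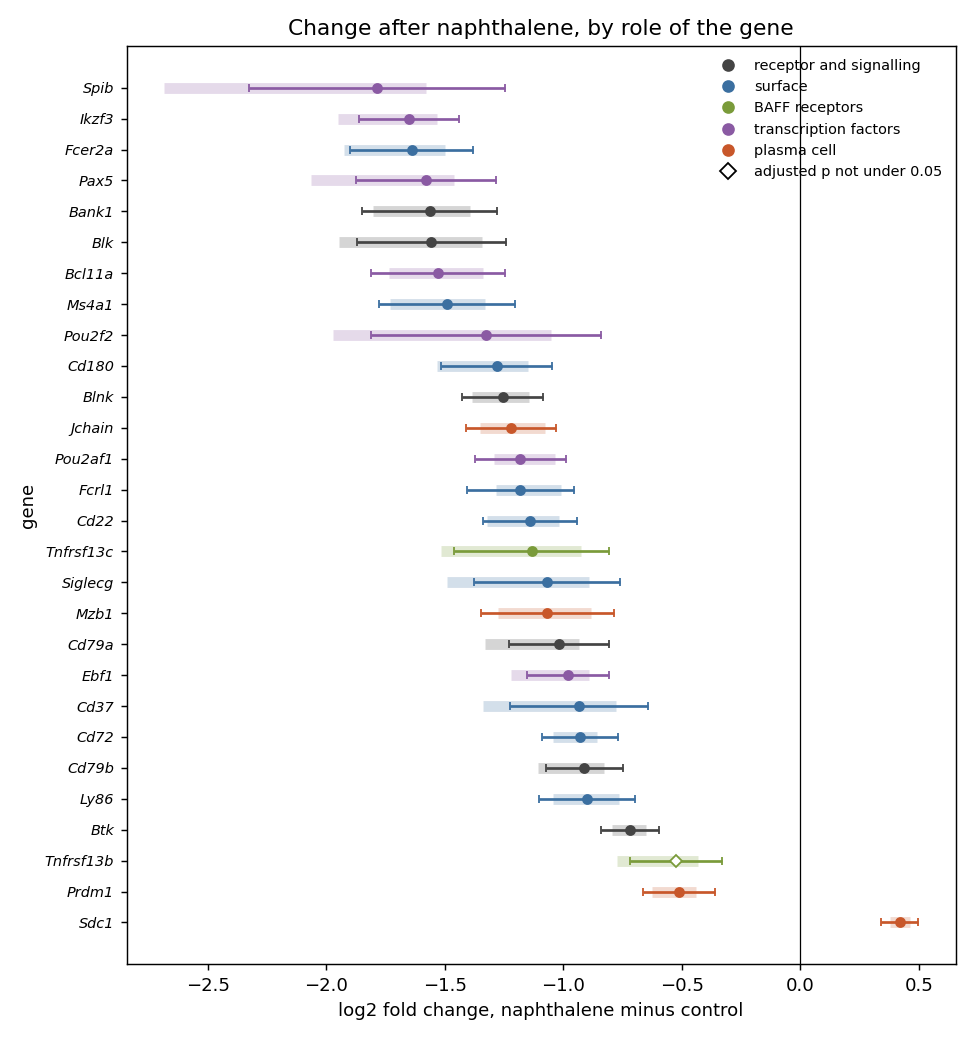
Log2 fold change (naphthalene minus control) of the 28 tested members, ordered by size and coloured by role, with standard errors of the difference between group means of log2 CPM as bars and the range over all 15 alternative analyses as pale bands. Spib is at the top with -1.79 and Sdc1 at the bottom with 0.42, and the open diamond marks Tnfrsf13b.

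The lowest and highest mice of a group were often the same from 1 mature gene to the next, though not for all genes. Control 3 was the lowest control for 15 of the 24 tested mature members and the highest for 0. The highest control was control 4 for 13 and control 1 for 9. Naphthalene 2 was the lowest injected mouse for 18, and the highest was naphthalene 1 for 15 and naphthalene 4 for 8. Summed over all mature members, the level was 494, 455, 395 and 504 CPM in controls 1 to 4 and 258, 158, 176 and 218 CPM in naphthalene libraries 1 to 4. The gap of 136 CPM between the lowest control and the highest injected mouse was larger than the range within controls (109 CPM) or injected mice (99.8 CPM). Without Ebf1, the most abundant of them, the controls were at 296 to 388 CPM and the injected mice at 108 to 181 CPM. The coefficient of variation was larger after naphthalene for 21 of the 24, beside 70.5% of all tested genes. The lowest control values were those of Bcl11a (3.65%, and 37.0% after naphthalene) and Bank1 (5.80% and 39.5%). Cd79b (16.3% and 14.9%), Blnk (17.5% and 16.5%) and Tnfrsf13b (19.2% and 18.8%) did not rise. Counts were also lower after naphthalene, and the part of counting noise in these values was not tested.

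Red cell genes, a measure of blood left in the tissue, varied widely within both groups. Their summed level ran from 31.5 to 1258 CPM in controls and from 51.9 to 2963 CPM after naphthalene, with 0 of 5 genes past the test. The part of residual blood in the B cell values was not tested. Of 5 tested neutrophil genes Retnlg and Mmp8 rose and 0 fell, beside 14.1% higher and 14.6% lower among all tested genes. All 5 overlapped between groups. Leaving out control 1, 2 or 4 or naphthalene 2 or 3 reduced the number that rose to 1, and leaving out control 3 raised it to 5. Control 3 was the highest control for all 5 genes, so leaving it out had to enlarge their rise. The neutrophil sum was 61.8 to 390 CPM in controls and 206 to 496 CPM after naphthalene, with Cxcr2 listed at 0 on chromosome 1.

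**Figure D3:**
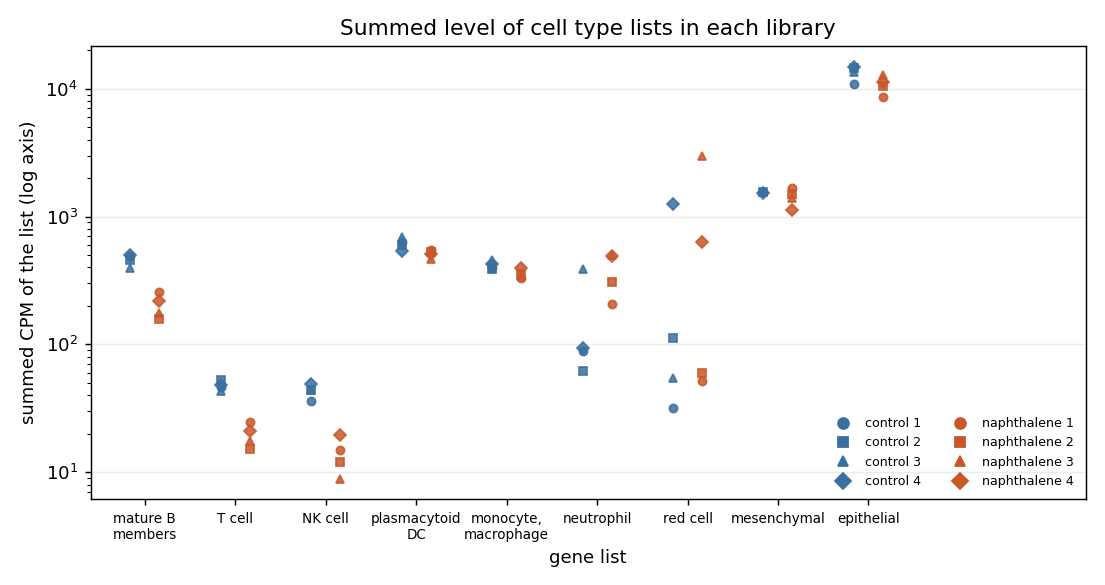
Summed CPM (log axis) of the mature B cell members and of 8 marker lists in each library, with controls in blue, naphthalene libraries in orange and the marker shape giving the replicate. Mature B, T and NK lists do not overlap between groups, while the red cell list spans 31.5 to 2963 CPM over all 8 libraries.

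The plasma cell members did not move as 1 group. Jchain, the joining chain of dimeric IgA and pentameric IgM, was at 34.2, 34.03, 39.5 and 42.7 CPM in controls and 20.1, 11.3, 17.2 and 15.9 CPM after naphthalene. All injected mice lay below all controls (log2 fold change -1.22 ± 0.19 SE, adjusted p = 0.000384 in edgeR). Mzb1, an endoplasmic reticulum chaperone cofactor for antibody assembly, was at 4.84, 3.56, 3.16 and 4.297 CPM in controls and 2.26, 1.17, 1.49 and 2.66 CPM after naphthalene. These groups were apart too (log2 fold change -1.07 ± 0.28 SE, adjusted p = 0.0144 in edgeR), although 57.2% of its exon length is shared with a Spata24 gene model on the same strand (GENCODE M21), so its counts are uncertain. Tnfrsf17, which encodes the plasma cell survival receptor BCMA, was too low to test. Controls 1 to 4 held 7, 9, 5 and 0 of its reads and naphthalene libraries 1 to 4 held 1, 2, 2 and 2.

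Prdm1, the gene of BLIMP1, was at 32.7, 32.0, 34.7 and 24.9 CPM in controls and 26.7, 21.2, 18.5 and 20.5 CPM after naphthalene. Control 4 lay below naphthalene 1, so the groups overlapped (log2 fold change -0.51 ± 0.15 SE, adjusted p = 0.0204 in edgeR). The call was lost without control 1, 2 or 3 or naphthalene 2 or 3 (edgeR adjusted p 0.0513 to 0.0599). Sdc1, the gene of the surface proteoglycan syndecan-1 (CD138), was at 244, 236, 243 and 269 CPM in controls and 309, 355, 359 and 302 CPM after naphthalene. It was the 1 member that rose, in all 4 injected mice above all controls (log2 fold change 0.42 ± 0.08 SE, adjusted p = 0.00724 in edgeR). Per kilobase of exon its control level was 65.0 CPM, against 14.9 for Jchain and 3.26 for Mzb1.

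Syndecan-1 is also a surface protein of epithelial cells, as BLIMP1 is made by T cells, macrophages and some epithelia. In the epithelial list 2 of 8 tested genes rose and 1 fell, beside 14.1% and 14.6% of all tested genes. Without naphthalene 1 the counts were 3 and 2. The list's summed level was 10841 to 14904 CPM in controls and 8649 to 12718 CPM after naphthalene. The keratin genes Krt8 and Krt18, chosen after their values were seen, rose from 157 ± 13.5 to 447 ± 158 CPM and from 87.2 ± 10.8 to 244 ± 89.0 CPM. The 1 that fell was the club cell gene Scgb1a1, to 27.7% of its control mean (log2 fold change -1.85, adjusted p = 0.00207 in edgeR). The other 5 did not pass, among them Sftpc at 101% and the ciliated cell gene Foxj1 at 61.9% of the control mean. The part of epithelial cells in the Sdc1 value was not tested. Without Sdc1, the plasma cell members summed to 70.2 to 77.8 CPM in controls and 33.8 to 49.1 CPM after naphthalene.

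Whether genes changed to different extents was tested on count ratios within each library, which do not depend on scaling to library size. Over 9 ratios, 0 passed an exact 2-sided permutation test over the 8 libraries after Benjamini-Hochberg adjustment, and 2 had an unadjusted p of 0.0286, the smallest that 4 against 4 allows. At least 6 of the 9 would have had to reach that smallest p for any to pass, so the adjusted values say little on whether genes differed. The log2 ratio of Jchain to Cd79a was 2.004 ± 0.272 in controls and 1.81 ± 0.262 after naphthalene, a difference of -0.20 (SE 0.19, exact permutation p = 0.343, adjusted p = 0.617). Mzb1 to Cd79a differed by -0.05 (SE 0.31, exact permutation p = 0.857, adjusted p = 0.964). Neither Jchain nor Mzb1 thus differed from Cd79a in its change by more than the spread between mice, and these standard errors leave room for modest differences.

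Sdc1 to Cd79a was higher after naphthalene by 1.46 on the log2 scale (SE 0.24) in all 4 injected mice (exact permutation p = 0.0286, adjusted p = 0.129). Pax5 to Cd79a was 1.55, 1.198, 1.18 and 1.31 in controls and 0.96, 0.61, 0.47 and 0.76 after naphthalene. Every injected mouse had less Pax5 per Cd79a than any control, a difference of -0.61 (SE 0.14, exact permutation p = 0.0286, adjusted p = 0.129). Ebf1 to Cd79a differed by 0.04 (SE 0.13, exact permutation p = 0.714, adjusted p = 0.918), and Tnfrsf13c to Cd79a by -0.15 (SE 0.26, exact permutation p = 0.571, adjusted p = 0.857). Prdm1 to Cd79a differed by 0.53 (SE 0.23, exact permutation p = 0.0857, adjusted p = 0.193). Against the T cell receptor chain gene Cd3e, Cd79a differed by 0.33 (SE 0.16, exact permutation p = 0.0571, adjusted p = 0.171), with overlapping groups.

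**Figure D4:**
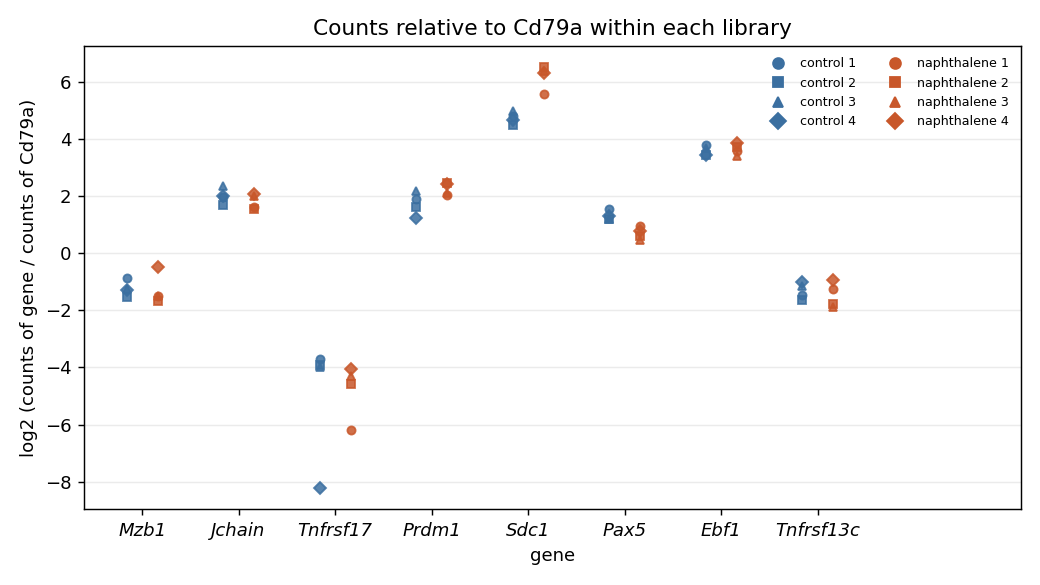
Log2 ratio of the counts of 8 members to those of Cd79a in each library, with controls in blue, naphthalene libraries in orange and the marker shape giving the replicate. The groups are apart for Sdc1 (higher after naphthalene) and Pax5 (lower) and overlap for the other 6, and the Tnfrsf17 points rest on 0 to 9 counts.

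Other genes of the B lineage were taken from lists chosen for their known roles. Of 14 further mature B cell genes all could be tested, 12 fell and 0 rose, with a median log2 fold change of -0.79. Among all tested genes 14.6% fell and 14.1% rose, with a median of 0.01. H2-Ob, a class II chaperone subunit of B cells, fell from 38.9 ± 5.10 to 10.3 ± 4.01 CPM. Ciita, the master activator of class II genes, and Bach2, a repressor that holds off plasma cell fate, fell by log2 values of -1.25 and -1.01. Bach2 and Ciita are also expressed outside B cells.

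In the receptor's wider signalling pathway 14 genes were tested. Of these 7 fell and 0 rose, beside 14.6% and 14.1% of all tested genes. The median log2 fold change was -0.37, beside 0.01 over all tested genes. Prkcb, the protein kinase C of B cell NF-kB signalling, fell from 49.5 ± 4.62 to 20.3 ± 4.97 CPM. The kinase genes Syk and Lyn fell by log2 values of -0.68 and -0.44. These 3 genes are used by other blood cells as well. Ptprc and Inpp5d lie on chromosome 1 and were listed at 0. Genes of precursor and germinal centre B cells were mostly too low to test. Of 3 tested S1pr2 alone rose and 0 fell, beside 14.1% and 14.6% of all tested genes. S1pr2 went from 51.6 ± 2.02 to 61.2 ± 3.36 CPM (edgeR adjusted p = 0.0464). Leaving out any 1 library other than naphthalene 4 ended that call (edgeR adjusted p 0.0502 to 0.121).

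Of 12 tested genes of B cell survival and homing 5 fell and 2 rose, beside 14.6% and 14.1% of all tested genes. Tnfsf13, described above, was among those that fell. Called but not described further are Cxcl12 (lower) and S1pr1 (higher). Cxcr5, the receptor that draws B cells into follicles, was at 7.98, 8.13, 7.38 and 8.09 CPM in controls and 4.29, 2.35, 1.76 and 2.93 CPM after naphthalene (log2 fold change -1.46 ± 0.26 SE, adjusted p = 0.00123 in edgeR). Its ligand gene Cxcl13 went the opposite way, from 1.97, 2.47, 2.02 and 1.29 CPM in controls to 4.76, 3.85, 6.85 and 12.5 CPM after naphthalene. The highest level was in naphthalene 4 and all injected mice exceeded all controls (log2 fold change 1.83 ± 0.41 SE, adjusted p = 0.00442 in edgeR). Ccr6, a receptor of mature B cells and some T cells, fell from 4.89 ± 1.30 to 1.60 ± 0.773 CPM. Ccl21a, a ligand of the lymphoid homing receptor CCR7, fell from 28.9 ± 5.93 to 12.5 ± 3.11 CPM, with near-identical copies of this gene making the value uncertain. Ccr7 itself, chosen after its values were seen, was at 12.4 ± 0.973 and 6.66 ± 3.58 CPM, and its groups did not overlap (log2 fold change -0.89 ± 0.42 SE, adjusted p = 0.0558 in edgeR). Leaving out naphthalene 1 brought it past the threshold (log2 fold change -1.25, edgeR adjusted p = 0.00584), as did leaving out naphthalene 4 (0.0468), no filter on low counts (0.0407) or DESeq2 (0.0208). Naphthalene 1 and 4 held the most Ccr7 of the injected mice (10.7 and 8.52 CPM), so leaving either out had to enlarge the fall. The receptor gene Cxcr4 and the ligand gene Ccl20 lie on chromosome 1 and were listed at 0.

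**Figure D5:**
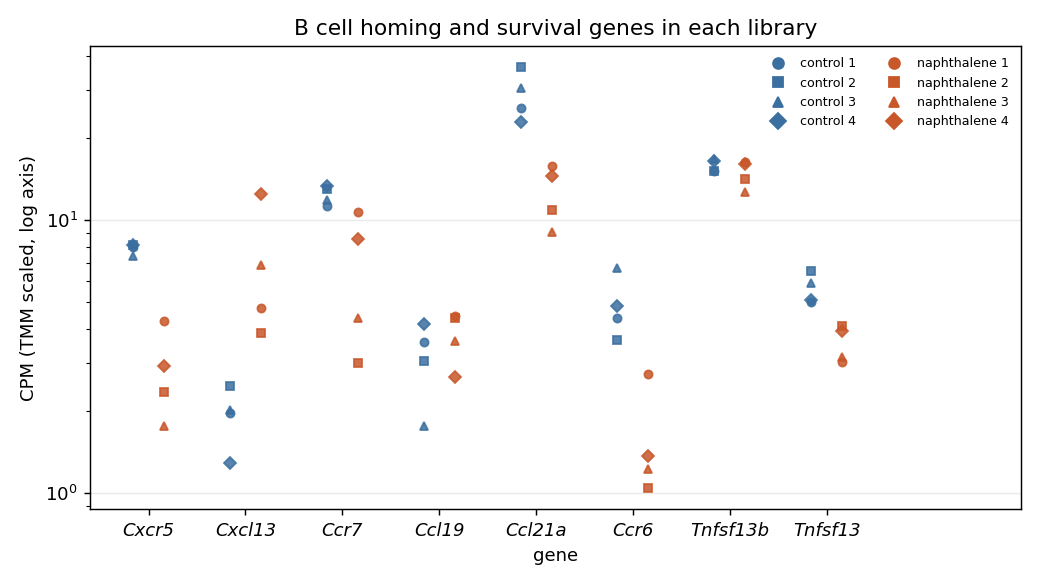
CPM (TMM scaled, log axis) of 8 homing and survival genes in each library, with controls in blue, naphthalene libraries in orange and the marker shape giving the replicate. Cxcr5, Ccr6, Ccl21a, Ccr7 and Tnfsf13 are lower and Cxcl13 is higher in all 4 injected mice than in any control. Ccr7 did not pass the threshold, and the Ccl19 groups overlap. The BAFF gene Tnfsf13b lies between 12.7 and 16.8 CPM in all 8 libraries.

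Of 12 tested genes of antibody secretion and plasma cell fate 2 fell and 3 rose, beside 14.6% and 14.1% of all tested genes. The median log2 fold change of the 12 was 0.30. Without control 3 and naphthalene 1 the counts were 3 and 5. The second that fell was Cd38, an ectoenzyme of lymphoid cells. Irf4, a factor needed for plasma cells and also used by T cells and macrophages, fell from 15.99 ± 0.847 to 6.59 ± 1.06 CPM (log2 fold change -1.28 ± 0.12 SE, adjusted p = 0.000124 in edgeR). Xbp1, the factor of the secretory and unfolded protein programmes, rose from 165 ± 9.52 to 247 ± 12.1 CPM. Herpud1 and Creld2, both unfolded protein response genes active in many cells, rose by 0.43 and 0.51 on the log2 scale.

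Promoters of the members, from the RefSeq table (GRCm38.p6, a different build from the mm39 of the counts), were searched for short sequences. These are linked to octamer, EBF and ETS factors, and members encode OCT2, EBF1 and SPI-B. Whether any member regulates another was not tested. Windows of 300 bases, from 250 before to 50 after the start site, were held for 29 members (35 windows). On both strands the octamer ATGCAAAT was found in 1 of the 35 windows (Blnk), beside 1.74% of all 32851 windows. The EBF palindrome (TCCC, any 2 bases, GGGA) was found in 1 of 35 (Cd22), beside 0.904%. The ETS sequence GAGGAAGT was found in 3 of 35 (Cd72, Cd37 and Fcrl1), beside 3.2%. Counts this small were not tested against these shares and are not read as more frequent. These 5 stretches are shown only as the places where a member's promoter carries the letters searched for. A match is a description and not a binding site. Capitals mark the match, and all end before the start site.
Blnk (chr19:40994314-40994381, minus strand): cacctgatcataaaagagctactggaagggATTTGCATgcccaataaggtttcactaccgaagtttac
Cd22 (chr7:30879038-30879107, minus strand): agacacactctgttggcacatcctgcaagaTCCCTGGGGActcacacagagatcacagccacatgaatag
Cd72 (chr4:43454638-43454705, minus strand): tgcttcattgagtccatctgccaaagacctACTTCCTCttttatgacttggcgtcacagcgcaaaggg
Cd37 (chr7:45238840-45238894, minus strand): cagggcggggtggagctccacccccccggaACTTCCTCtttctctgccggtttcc
Fcrl1 (chr3:87376342-87376386, plus strand): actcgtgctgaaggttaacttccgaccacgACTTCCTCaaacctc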

How the data were processed

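The authors deposited raw read counts per gene symbol for 8 libraries. Per the submitters' processing notes, which give no roles, the build was mm39 and the tools were featureCounts 2.0.6, HISAT2 2.2.1, Trim Galore 0.6.7 and edgeR 4.2.1. No source used here gives the annotation, strand setting or handling of multiply mapped reads. Columns were matched to mice by library name, and 0 belonged to other samples. Chi-square values per degree of freedom between libraries of a group were 5.57 to 48.5, so none was counted as a repeat.

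The test used edgeR 4.0.16 under R 4.3.3 (TMM, filterByExpr with minimum count 10 and minimum total 15, quasi-likelihood test, group as the only term) over all genes. Benjamini-Hochberg adjusted p under 0.05 was the threshold. Standard errors come from the spread of log2 CPM (prior count 2) within groups. Ratios used counts plus 0.5. The procedure was tested on simulated data. Replicates are separate mice per the labels' protocols.

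Members, lists and tests were chosen with earlier results of these data known. Values in every library are given for Cd79a, Cd79b, Ms4a1, Pax5, Cd22, the plasma cell members, the 3 mature members of largest change and those not past the threshold. Of each context list, up to 4 genes past the threshold with the smallest p are named. Results for a few of these genes are not reported here. Alternatives were other scalings and filters, a replicate block, DESeq2 1.42.0 and libraries left out. The planned ratio of Cr2 to Cd79a was not computed. For 13 list genes, among them all 12 immunoglobulin constant genes, the count table has no row under the symbol, so they could not be analysed. Exon lengths and overlaps came from GENCODE M21 (GRCm38), and 20463 symbols matched the RefSeq table.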

Additional observations from a re-analysis of the deposited data

Results flagged for a closer look

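Among 90 sets of 4 values (members and named list genes in each group), 4 held a library far from the other 3, its gap to the nearest exceeding Dixon's critical value when taken as a share of the group's range. Chance flags about 1 in 20 such sets. In the naphthalene group the highest library was replicate 1 for Pax5 (gap 0.921 of the range) and for Spib (0.83). Control 4 was the highest control for Tnfrsf13c (0.866). Naphthalene 4 was the lowest injected library for Xbp1 (0.831).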

How the results depend on the processing

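Over 15 alternatives the 28 tested members gave 420 values, of which 401 kept direction and side of the threshold, 15 lost the call, 4 gained it and 0 changed sign. The mature B cell members past the threshold numbered 20 to 24 when 1 library was left out and 24 with DESeq2, and the plasma cell members 3 or 4. All genes past the threshold numbered 2929 to 5058 when 1 library was left out and 5349 without control 3 and naphthalene 1. Upper quartile scaling put the median over all genes at -0.02 and that of the mature members at -1.21. With the replicate block 23 mature members and 4 plasma cell members passed, as without it, and 4363 genes in all. The block brought Ccr7 past the threshold (edgeR adjusted p = 0.0271) and ended the call of S1pr2 (0.0636). Deviations of same-numbered libraries correlated by -0.0934 to 0.287, and those of other control and naphthalene libraries by -0.402 to 0.354. These values cannot settle whether the numbers pair the mice. When 1 library was left out, 0 ratios passed, but 3 against 4 cannot give an exact p under 0.0571. The differences from Cd79a then ranged from -0.90 to 0.65 for Tnfrsf17, from -0.32 to 0.075 for Mzb1 and from -0.032 to 0.11 for Ebf1. Low counts limit Tnfrsf17, Fcrl5, Mzb1 and Tnfrsf13c.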

Other observations

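Of the genes of early lymphocyte development, Rag1 and Dntt had their most counts in 1 library, control 2. Rag1, the V(D)J recombinase gene, had 58 counts (4.21 CPM) in control 2 against 0 to 6 in the other controls and 1 or 2 in the injected mice. Dntt, which adds bases at antigen receptor joints, had 21 counts in control 2 against 0 to 9 elsewhere. Both genes were chosen after their values were seen, and 2 others of the same list did not follow them. Rag2 had 4 counts in control 2 and 10 in control 4, and Igll1 had 0 and 3. Control 2 was the highest control for 2 of the 24 tested mature B cell members. It also held the highest summed T cell level, 52.5 CPM against 43.1 to 47.6 CPM in the other controls.

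Vpreb3, a gene of the B cell receptor assembly pathway chosen after its values were seen, had the largest fall among the tested B lineage genes listed here (log2 fold change -2.77, edgeR adjusted p = 0.000341). It was at 4.39, 3.63, 2.90 and 5.44 CPM in controls and 0.952, 0.522, 0.615 and 0.183 CPM after naphthalene. The naphthalene values rest on only 16, 8, 7 and 2 counts, so the size of this fall is uncertain. The near-total zeros on chromosome 1 touched 4 members and 8 of the other listed genes, among them Ptprc, the gene of the pan-leukocyte antigen CD45.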
